A study of Mus musculus with 9 samples.

Results

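Aquaporins are membrane channels for water, and 6 of their genes were followed through mouse skin: Aqp1, Aqp3, Aqp4, Aqp5, Aqp7 and Aqp9. They are 6 of the 54456 genes of the deposited count table, and all 6 were among the 26081 genes with enough counts to be fitted. Aqp5 was chosen by its measured difference between 2 kinds of microneedle device, so its values are given as a description with no test. The other 5 were named for the tissue each is known from, in a set proposed with earlier results of these data known, and they were tested. The skin came from AA-like lesions of a mouse study of immune-mediated alopecia, a loss of hair in which immune cells attack the follicle. Polyadenylated RNA was sequenced from 9 libraries in 3 groups of 3: untreated lesions, lesions treated with microneedles without a load (the empty device), and lesions treated with microneedles loaded with IL-2 and CCL22 (the loaded device). IL-2 makes T cells grow, whereas CCL22 draws in cells that carry the chemokine receptor CCR4. All 3 groups are lesions, and no skin without a lesion is among them. The sources used here do not give strain, age, how the lesions were induced, or dose and time of treatment. No label ties the libraries to separate animals, so the p-values rest on the spread between libraries alone, and that spread may be technical.

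Aquaporins let water cross a membrane along an osmotic gradient. Aqp1, Aqp4 and Aqp5 encode channels for water, whereas Aqp3, Aqp7 and Aqp9 encode aquaglyceroporins, which also pass glycerol and other small solutes. Each is known from particular cells: Aqp1 from capillary endothelium and red blood cells, Aqp3 from keratinocytes of the epidermis, Aqp4 from the membrane of fast muscle fibres, Aqp5 from the secreting cells of sweat, salivary and tear glands, Aqp7 from fat cells, and Aqp9 from liver and from white blood cells such as neutrophils. In skin, glycerol that enters keratinocytes through Aqp3 is known to keep the outer layers moist.

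The bases upstream of Aqp5 and Aqp3 are printed because these 2 members had the most negative log2 fold changes of the 6 with the loaded device against untreated skin. Both are the 250 bases before the RefSeq start of the gene in the build GRCm38.p6, which is not the mm39 build of the counts, 5′ to 3′ on the strand of the gene. The Aqp5 stretch lies on the plus strand at chr15:99590778-99591027 and the Aqp3 stretch on the minus strand at chr4:41098184-41098433. Capitals mark 2 motifs, read on both strands: the TATA box (TATAAA) and the GC box (GGGCGG).
Aqp5: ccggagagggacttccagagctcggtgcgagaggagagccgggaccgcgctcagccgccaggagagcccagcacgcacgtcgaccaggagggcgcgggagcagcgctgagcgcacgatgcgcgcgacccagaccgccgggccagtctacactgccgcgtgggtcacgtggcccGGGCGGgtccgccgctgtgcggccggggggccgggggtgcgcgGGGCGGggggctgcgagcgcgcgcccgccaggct
Aqp3: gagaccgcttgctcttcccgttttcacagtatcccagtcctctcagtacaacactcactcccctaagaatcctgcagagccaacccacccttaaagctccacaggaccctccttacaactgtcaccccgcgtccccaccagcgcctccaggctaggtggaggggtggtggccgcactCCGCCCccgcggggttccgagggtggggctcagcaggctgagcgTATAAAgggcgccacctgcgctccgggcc
The Aqp5 stretch held 2 GC boxes, which began 77 and 34 bases before the start, and no TATA box. Its share of G and C was 78.4%. The Aqp3 stretch held 1 GC box and 1 TATA box, the latter beginning 29 bases before the start, and 64% G and C. Among 32851 stretches of the same length and origin, 32.7% held a GC box and 12.4% a TATA box. Neither gene's stretch held a CCAAT box (CCAAT, in 33.8% of stretches) or an AP-1 site (TGANTCA, in 6.75%). These matches describe the letters and are no evidence of binding.

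Total counts ran from 85962714 to 96740589 per library. Levels are given in CPM, counts per 1000000 of a library size scaled by TMM factors, which allow for a few very abundant genes. On this scale the median log2 fold change over all tested genes was -0.014 for the loaded device against untreated skin, -0.016 for the empty device against untreated skin and 0.015 between the devices. Scaling by library size alone moved the first of these medians to 0.12, and the share of higher among called genes from 44.9% to 68.1%. For the empty device against untreated skin that share moved from 41.7% to 57.9% with library size alone and to 53.0% with upper-quartile factors. Between the devices it moved from 55.3% to 44.4% with upper-quartile factors. Mitochondrially encoded transcripts, a sign of RNA quality, took 4.56% to 4.72% of counts in untreated skin, 3.31% to 3.42% with the empty device and 3.78% to 3.90% with the loaded device. Their part in the results was not tested.

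Aqp5 stood lowest with the loaded device. Its level was 8.64, 8.57 and 8.46 CPM in the 3 untreated libraries, 12.8, 11.8 and 10.9 CPM under the empty device and 1.99, 1.83 and 1.64 CPM under the loaded one. All 3 groups were apart, with the empty device highest, untreated skin in the middle and the loaded device lowest. The raw counts behind these levels were 711 to 733, 1049 to 1183 and 154 to 178 per library. The fitted log2 fold change between the loaded and the empty device, the contrast for which the gene was chosen, was -2.70 (SE 0.081), a 6.50-fold lower level. Against untreated skin it was -2.23 (SE 0.084) with the loaded device and 0.47 (SE 0.066) with the empty device, and these values share libraries with the contrast that chose the gene. Of the 26081 fitted genes, 20 had a larger absolute log2 fold change between the devices and 47 between the loaded device and untreated skin, whereas 6484 had a larger one between the empty device and untreated skin. In bulk skin, fewer cells of a type and less RNA per cell cannot be told apart, here or for the genes that follow.

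Aqp4, the channel of fast muscle fibres, was highest with the empty device as well. It stood at 7.40, 7.43 and 7.17 CPM in untreated skin, 10.3, 10.5 and 12.6 CPM under the empty device and 5.84, 6.23 and 5.85 CPM under the loaded one. No group overlapped another, and empty-device library 3 lay above the other two of its group. Aqp4 rose under the empty device against untreated skin, by 0.61 on the log2 scale (SE 0.069, edgeR adjusted p = 1.91e-08, n = 3 libraries per group). It fell with the loaded device against untreated skin (-0.30, SE 0.074, edgeR adjusted p = 0.00154), a call lost with scaling by library size alone (-0.16, edgeR adjusted p = 0.0743). Between the devices it was 1.87-fold lower with the load (-0.90, SE 0.070, edgeR adjusted p = 1.53e-11). A predicted gene on the other strand, Gm50048, covers 36.7% of the Aqp4 span, with 52 to 59 counts in all per group, and how reads of the shared stretch were assigned is not known.

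Aqp1, the channel of capillaries and red blood cells, was nearly level. It stood at 60.4, 60.3 and 59.7 CPM in untreated skin, 55.8, 59.9 and 60.4 CPM under the empty device and 63.2, 61.8 and 63.8 CPM under the loaded one. The untreated and empty-device libraries overlapped, and the loaded-device libraries lay just above both. Neither device passed the test against untreated skin. The log2 fold change was 0.066 with the loaded device (95% interval -0.0041 to 0.14, edgeR adjusted p = 0.128) and -0.035 with the empty device (95% interval -0.10 to 0.035, adjusted p = 0.428). Aqp1 was 7.23% higher under the loaded than under the empty device, by 0.10 on the log2 scale (SE 0.034, edgeR adjusted p = 0.0174). This call was lost in 8 of 17 alternatives, among them DESeq2 size factors (0.084, adjusted p = 0.0604) and leaving out empty-device library 1 (0.067, adjusted p = 0.137), the lowest of its group, or loaded-device library 1 or 3 (0.10 and 0.093).

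Aqp3, the glycerol channel of keratinocytes, fell with the loaded device, against untreated skin and against the empty device. It stood at 397, 398 and 388 CPM in untreated skin, 392, 399 and 369 CPM under the empty device and 262, 265 and 279 CPM under the loaded one. The untreated and empty-device libraries overlapped, and every loaded-device library lay below them. The level with the loaded device was 1.47-fold lower than in untreated skin (log2 -0.56, SE 0.035, edgeR adjusted p = 3.9e-13, n = 3 libraries per group). It was 1.44-fold lower than with the empty device (-0.53, SE 0.035, edgeR adjusted p = 7.28e-13). The empty device did not pass against untreated skin (-0.029, 95% interval -0.10 to 0.042, edgeR adjusted p = 0.525).

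Aqp9, an aquaglyceroporin known from liver and white blood cells, had the same order of groups as Aqp4. It stood at 21.7, 22.3 and 22.3 CPM in untreated skin, 29.3, 29.9 and 28.4 CPM under the empty device and 19.7, 19.0 and 19.98 CPM under the loaded one. The 3 groups were apart, the empty device by the wider gap. Aqp9 rose under the empty device, by 0.40 on the log2 scale (SE 0.041, edgeR adjusted p = 1.69e-09) and fell with the loaded device (-0.17, SE 0.042, edgeR adjusted p = 0.00117), both against untreated skin. The second call was lost with scaling by library size alone (-0.040, edgeR adjusted p = 0.478). With the load Aqp9 was 1.49-fold lower than with the empty device (-0.58, SE 0.041, edgeR adjusted p = 2.14e-12). The predicted genes Gm32511 and Gm47268 on the other strand cover 8.43% and 1.21% of its span, and Gm32511 held 174, 267 and 160 counts in untreated skin and under the empty and the loaded device, summed over each group.

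Aqp7, the channel through which fat cells release glycerol, was the most variable of the 6. It stood at 1.34, 1.83 and 1.51 CPM in untreated skin, 1.73, 1.86 and 2.42 CPM under the empty device and 2.40, 1.91 and 2.12 CPM under the loaded one. These are 110 to 233 raw counts per library. The loaded-device libraries lay above all untreated ones, and the empty-device libraries overlapped both groups. Aqp7 rose under the loaded device against untreated skin, by 0.46 on the log2 scale (SE 0.14, edgeR adjusted p = 0.00999) and with the empty device (0.36, SE 0.14, edgeR adjusted p = 0.0376). The first call was lost without untreated library 1 (0.36, adjusted p = 0.0625) or loaded-device library 1 (0.37, adjusted p = 0.0699). The second was lost without untreated library 1 or 3, empty-device library 3 or loaded-device library 3 (0.26, 0.33, 0.24 and 0.36). Between the devices it did not pass (0.097, 95% interval -0.18 to 0.37, edgeR adjusted p = 0.612).

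**Figure D1:**
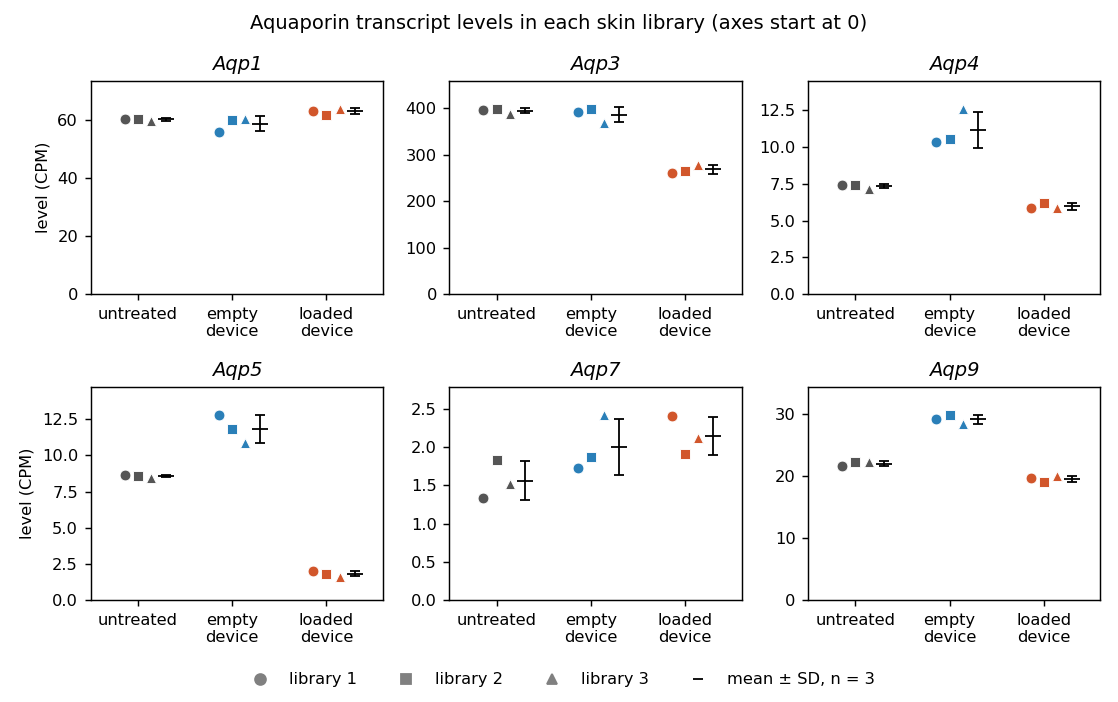
Level of each aquaporin in CPM (vertical axes, each from 0) in the 9 libraries of the 3 groups, with the mean ± SD of 3 libraries beside the points. Aqp5 falls in 3 bands, at 8.46 to 8.64 CPM untreated, 10.9 to 12.8 CPM under the empty device and 1.64 to 1.99 CPM under the loaded one, whereas Aqp1 stays between 55.8 and 63.8 CPM.

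The spread between libraries of a group differed among the members. As a coefficient of variation it ran from 0.617% for Aqp1 in untreated skin to 18.2% for Aqp7 with the empty device. The untreated libraries of Aqp1, Aqp3, Aqp4, Aqp5 and Aqp9 varied by 1.92% or less, and each of these genes varied more with the empty device, at 2.52% to 11.2%.

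With the empty device against untreated skin, 3 of the 5 tested aquaporins rose (Aqp4, Aqp7 and Aqp9), 0 fell and 2 did not pass. Of all tested genes, 20.2% were called higher and 28.1% lower in that comparison, at an edgeR adjusted p under 0.05. With the loaded device against untreated skin, 1 rose (Aqp7), 3 fell (Aqp3, Aqp4 and Aqp9) and 1 did not pass, where 19.0% of all genes were called higher and 23.3% lower. With the loaded against the empty device, 1 was higher (Aqp1), 3 were lower (Aqp3, Aqp4 and Aqp9) and 1 did not pass, where 22.9% of all genes were called higher and 18.5% lower. The groups did not overlap for 2, 5 and 4 of these 5 genes in the 3 comparisons, in the same order. The shares over all tested genes were 54.6%, 52.7% and 50.8%, so a lack of overlap was common in this table. The 3 comparisons share libraries and are not independent of each other.

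**Figure D2:**
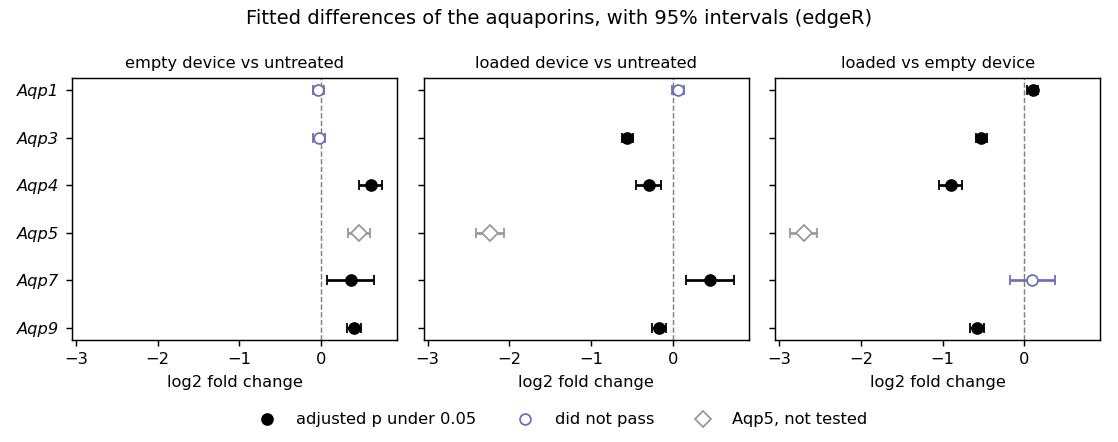
Fitted log2 fold changes (horizontal axis) of the 6 aquaporins in the 3 comparisons, with 95% intervals from edgeR. Filled circles passed at an adjusted p under 0.05, open circles did not, and open diamonds are Aqp5, which was not tested; Aqp5 lies at -2.70 between the devices and the next lowest is Aqp4 at -0.90.

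Each aquaporin was then set beside genes of the tissue it is known from, taken from 18 lists for skin and other cells. These counts and medians describe the lists and are not a test of them. They are to be read beside the shares of all tested genes called in each comparison, given above. None of the 16 fast muscle genes was at 0, and their summed level was 10702 to 11030 CPM in untreated skin, 13052 to 15304 CPM under the empty device and 9561 to 10218 CPM under the loaded one. Of these 16, 12 rose with the empty device against untreated skin (2 fell, median log2 fold change 0.30) and 12 fell with the loaded device (1 rose, median -0.18; 4 fell with scaling by library size alone). The myosin gene Myh1 (0.68, SE 0.049) and the actin gene Acta1 (0.71, SE 0.046) rose with the empty device. Another fast myosin gene, Myh4, named after its values were seen, fell with the empty device (-0.93, SE 0.062) and was higher under the load than under the empty device (1.20, SE 0.063), the opposite of Aqp4. Aqp4 had the same directions as the list medians and lay beyond the list median, by 0.31 with the empty device and by -0.11 with the loaded device. Between the devices it was lower than each of the 16 list genes (-0.90 against a median of -0.57). Slow muscle genes did not share that direction, with 5 of 8 higher and 1 lower under the load than under the empty device (median 0.53, with 3 higher under a stricter filter). Their summed level was far below that of the fast genes. It was 15.5 to 17.4 CPM untreated, 14.4 to 15.9 CPM under the empty device and 19.0 to 20.5 CPM under the loaded one. In muscle, Aqp4 is held at the membrane by syntrophins of the dystrophin complex. Of the 13 genes of that complex, 4 were higher and 7 lower under the load than under the empty device (median -0.19), with the dystrobrevin gene Dtna at -0.65 (SE 0.059) and the sarcoglycan gene Sgca at -0.66 (SE 0.061). The dystrobrevin gene Dtnb (0.48, SE 0.041) and the syntrophin gene Sntb2 (0.35, SE 0.037) were higher. The part of the muscle genes in the Aqp4 result was not tested.

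Aqp7 did not pass between the devices, where most fat genes were higher with the load. Of 16 adipocyte genes, 11 fell and 4 rose with the empty device against untreated skin (median -0.58). Among those that fell were the adipokine gene Adipoq, from 22.6 ± 1.56 to 10.3 ± 0.280 CPM, and the lipid droplet gene Plin1, from 9.70 ± 0.225 to 5.43 ± 0.329 CPM (mean ± SD, n = 3). With the loaded device these 2 genes stood at 32.9 ± 2.14 and 16.1 ± 0.202 CPM. Of the 16, 9 rose and 0 fell with the loaded device against untreated skin (median 0.27), where Aqp7 rose as well (0.46). Against the empty device, 13 of the 16 rose and 2 fell with the load (median 0.89), whereas Aqp7 was at 0.097 and did not pass. The difference between Aqp7 and the list median was 0.94 with the empty device against untreated skin, 0.19 with the loaded device against untreated skin and -0.80 between the devices. The summed level of the list was 2093 to 2165 CPM untreated. It was 2014 to 2303 CPM under the empty device and 2211 to 2319 CPM under the loaded one. The sums untreated and with the empty device overlapped, although 11 of the 16 fell. Car3 (0.49, SE 0.054) and Slc2a4 (0.49, SE 0.048), named after their values were seen, were among the 4 that rose there. They were also the 2 that fell with the load against the empty device (-0.50 and -0.51), as the fast muscle median did. None of the 16 was at 0, and their part in the Aqp7 result was not tested. Of 14 genes that make, store or release glycerol, 6 were higher and 4 lower under the load than under the empty device (median 0.035). The lipase gene Pnpla2 rose with both devices against untreated skin (0.33, SE 0.032 loaded and 0.16, SE 0.032 empty). Pck1, whose enzyme feeds glycerol synthesis, was 1.06 (SE 0.060) with the loaded and -0.73 (SE 0.066) with the empty device against untreated skin.

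Aqp3 was lower with the loaded device while the median of the basal keratinocyte genes was near 0. Of 12 basal genes, 5 fell, 2 rose and 5 did not pass against untreated skin, with a median of -0.042, and the difference between Aqp3 and that median was -0.51. With library size alone, 7 rose and 3 fell. Only Krt14, a basal keratin gene, lay lower (-1.01, SE 0.043) among the 12. The summed level of the basal list was 15064 to 15777 CPM in untreated skin, 11692 to 12149 CPM under the empty device and 10983 to 11457 CPM under the loaded one. Suprabasal genes, which are switched on as keratinocytes leave the basal layer, were lower with the load: 9 of 12 fell and 0 rose against untreated skin (median -0.40, with up to 2 higher in the alternatives), and 11 of 12 were lower than with the empty device (median -0.55). With the empty device against untreated skin, 6 rose and 6 fell (median 0.16). The keratin gene Krt1 stood at 9397 ± 149 CPM untreated, 12578 ± 423 CPM under the empty device and 5940 ± 246 CPM under the loaded one. The protease gene Klk7 of the same list was lower with the empty device, at 2180 ± 107, 1473 ± 52.1 and 1067 ± 34.4 CPM in that order. Of this list, Calm4 was at 0 in all 9 libraries and Sbsn in the loaded-device libraries, and neither was tested. Sbsn had too few counts over the 9 libraries to pass the filter, so its 0 does not show a fall. Pld2, which encodes a phospholipase known to work with Aqp3 in keratinocytes, rose with the empty device (0.56, SE 0.037), where Aqp3 did not pass. It was lower under the load than under the empty device (-0.66, SE 0.037). With the loaded device against untreated skin Pld2 was at -0.10 (SE 0.038), beside -0.56 for Aqp3. Genes of other skin cells were lower with the loaded device against untreated skin as well. Of 14 genes that keratinocytes switch on after injury, 11 fell and 2 rose (median -1.30), and their summed level was 3018 to 3384 CPM untreated, 1602 to 1783 CPM under the empty device and 1056 to 1118 CPM under the loaded one. Of 12 fibroblast genes, 10 fell and 0 rose (median -0.53, with 2 higher under library size alone), at 1697 to 1753, 1479 to 1590 and 1155 to 1187 CPM in the same order. Of 13 sebaceous gland genes, 8 fell and 3 rose (median -0.25, with 1 to 5 higher in the alternatives), at 1949 to 1988, 1979 to 2035 and 1688 to 1745 CPM. None of the genes of these 3 lists was at 0. The part of these cells in the Aqp3 result was not tested.

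Aqp9 was set beside neutrophil and macrophage genes, which had its direction in the comparisons of the loaded device but mostly not with the empty device. Of 12 tested neutrophil genes, 0 rose and 4 fell with the empty device against untreated skin (median -0.44, with 2 higher under library size alone), and Aqp9 lay above every gene of the list. With the loaded device 7 fell and 0 rose (median -0.70), among them the growth factor receptor gene Csf3r (-1.10, SE 0.14). The summed level of the list, 101 to 122 CPM untreated, was 95.02 to 98.2 CPM under the empty device and 46.6 to 52.4 CPM under the loaded one. In untreated skin Cxcr2 alone stood at 25.7 ± 1.10 CPM, beside 2.01 ± 0.0161 CPM for Csf3r (mean ± SD, n = 3). Clec4e, Ly6g, Mmp8, Retnlg and Trem1 passed in no comparison, and Camp and Ngp were too low to be tested. The list does not show which cells gave its counts. Of 13 macrophage genes, 2 rose and 9 fell with the empty device (median -0.35), and 12 fell and 0 rose with the loaded device (median -0.59), where Aqp9 was at -0.17. Between the devices, where Aqp9 was at -0.58, 5 of the 12 neutrophil genes were lower and 0 higher with the load (median -0.33). Of the macrophage genes 9 were lower and 0 higher there (median -0.25). Some lists of other tissues had medians in the direction of Aqp9 in all 3 comparisons, among them suprabasal keratinocyte and fast muscle genes. The suprabasal medians were 0.16 with the empty device (6 rose and 6 fell), -0.40 with the loaded device and -0.55 between the devices. The fast muscle medians were 0.30, -0.18 and -0.57 in the same order. The part of all these cells in the Aqp9 result was not tested, and these values do not show which cells of this skin held its transcripts.

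Aqp1 was set beside blood vessel and red blood cell genes. Of 20 blood endothelial genes, 9 rose and 1 fell with the loaded device (median 0.14) and 11 rose and 1 fell with the empty device (median 0.20), both against untreated skin. The growth factor receptor gene Kdr rose with both (0.37, SE 0.061 and 0.27, SE 0.062). The differences between Aqp1 and the list medians were -0.070 and -0.23, with 17 of the 20 genes above it in the empty-device comparison. With library size alone, 16 of the 20 were higher with the loaded device and so was Aqp1 (0.20, edgeR adjusted p = 2.09e-05). Between the devices, where Aqp1 was called, 1 endothelial gene was higher and 3 were lower with the load (median 0.0016, with 1 to 2 and 2 to 5 in the alternatives). Of 7 tested red blood cell genes, 2 rose and 1 fell with the loaded device (0 to 3 rose in the alternatives), and 0 rose and 2 fell with the empty device (up to 2 rose in the alternatives). Between the devices 2 red blood cell genes were higher and 0 lower with the load (median 0.086), the heme synthesis gene Alas2 (0.37, SE 0.10) and the anion exchanger gene Slc4a1 (0.49, SE 0.056). The summed level of the red blood cell list was 47.5 to 53.5 CPM untreated, 42.8 to 46.7 CPM under the empty device and 49.1 to 51.6 CPM under the loaded one.

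Aqp5 lay below every tested gene of the secretory gland list with the loaded device. The gene was chosen for a large difference between the devices, so its place below the list there was largely set by that choice. The comparison of the loaded device with untreated skin shares libraries with that contrast. That list holds 20 genes of sweat, salivary, tear and milk glands, of which 16 had enough counts and Foxa1, Foxi1, Pip and Wap did not. Some of the 16, such as Slc12a2, are also known from other epithelia, so the list does not show that gland tissue was sampled. Its median was -0.19 with the loaded and -0.26 with the empty device against untreated skin, where Aqp5 stood at -2.23 and 0.47. With the loaded against the empty device, 5 were higher and 6 lower. The chloride transporter gene Slc12a2, which drives fluid secretion in glands, was lower (-0.53, SE 0.033), and so was the chloride channel gene Ano1 (-0.50, SE 0.035). Csn3, a milk protein gene, was higher (0.78, SE 0.061). The summed level of the list was 397 to 404 CPM untreated, 389 to 403 CPM under the empty device and 367 to 372 CPM under the loaded one.

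**Figure D3:**
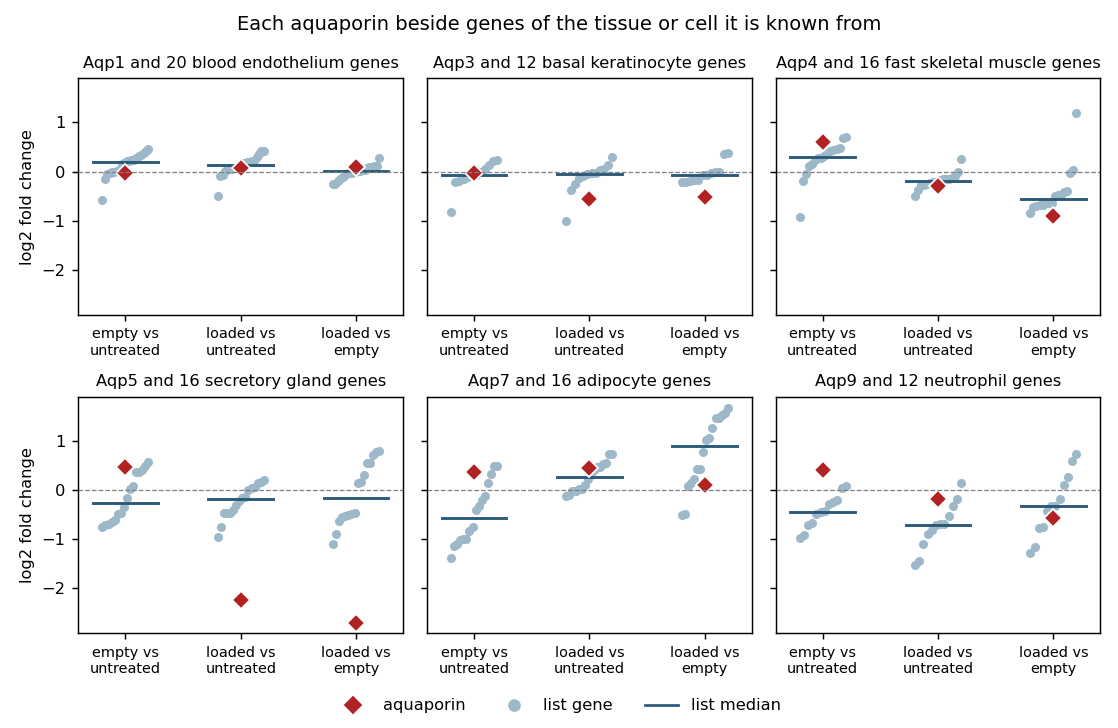
Log2 fold changes (vertical axis) of each aquaporin (diamond) and of the tested genes of the list named in each panel (circles, with their median as a line) in the 3 comparisons. The Aqp5 diamond lies below all 16 secretory gland genes in both comparisons of the loaded device, and the Aqp7 diamond lies at 0.36 where the adipocyte median is -0.58. Aqp5 was chosen for its difference between the devices, which largely sets its place there.

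Hair follicle genes differed between all 3 groups. Of 19, 18 rose and 1 fell with the loaded device against untreated skin (median 0.30), and 1 rose and 18 fell with the empty device (median -0.44). Their summed level was 36383 to 37512 CPM untreated, 24079 to 27322 CPM under the empty device and 41852 to 44923 CPM under the loaded one. This order of groups is the reverse of that of Aqp4, Aqp5 and Aqp9, and the part of the follicle genes in those results was not tested.

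Genes of cell volume control and the response to osmotic stress were called in both directions. Of 18 tested, 7 rose and 5 fell with the loaded device, and 3 rose and 3 fell with the empty device, both against untreated skin (medians 0.050 and -0.040). In the alternatives 4 to 9 and 3 to 8 rose. Of all tested genes, 19.0% were called higher and 23.3% lower with the loaded device. With the empty device these shares were 20.2% and 28.1%. Trpv4, an ion channel gene known to act with Aqp5 in gland cells, rose with the loaded device (0.43, SE 0.043). Akr1b3, whose enzyme makes the osmolyte sorbitol, fell with both devices (-0.52, SE 0.044 loaded and -0.66, SE 0.044 empty). Oxsr1 and Slc5a3 of this list, and Calm4 above, were listed at 0 in all 9 libraries. The spans of all 3 are covered to 100% by other genes of the table on the same strand, so a 0 there does not show that a gene was silent.

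Among the 6 other aquaporin genes of the table, Aqp11 had 93 to 222 counts per library, beside 110 to 233 for Aqp7, and the rest had 22 or fewer. Aqp11, which encodes a channel of the endoplasmic reticulum, stood at 1.54, 1.53 and 1.32 CPM in untreated skin, 1.005, 1.23 and 1.17 CPM under the empty device and 1.91, 2.43 and 2.01 CPM under the loaded one, with no overlap between groups. It rose with the loaded device (0.54, SE 0.13, edgeR adjusted p = 0.00131) and fell with the empty device (-0.36, SE 0.14, edgeR adjusted p = 0.0335), the opposite order to Aqp5, Aqp4 and Aqp9. The second of these calls was lost in 10 of 17 alternatives. Aqp12, known from pancreas, had 7 to 22 counts per library and was higher under the load than under the empty device (0.99, SE 0.38, edgeR adjusted p = 0.0374), and of the 2 such genes 1 was called in 8 of 17 alternatives. Aqp2, the channel of the kidney collecting duct, had 2 to 19 counts per library and passed in 0 comparisons. Mip, Aqp6 and Aqp8, with 7 counts or fewer in each library, were too low to be tested.

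Aqp5 lies between Aqp2 and Aqp6 on chromosome 15, from 99488663 to 99492710 on the plus strand of mm39, and no other gene of the table overlaps it. Aqp2 ends 6235 bases before it and Aqp6 starts 6571 bases after it. These neighbours held 37 and 3 counts in the 3 untreated libraries together, 28 and 2 under the empty device, and 18 and 7 under the loaded one, where Aqp5 held 2173, 3387 and 499. Aqp7 and Aqp3 lie near each other on chromosome 4, from 41033074 to 41048139 and from 41092722 to 41098183, both on the minus strand. They moved in opposite directions with the loaded device against untreated skin (0.46 and -0.56). Aqp1 lies on chromosome 6 from 55313417 to 55325540, and Aqp9 on chromosome 9 from 71017941 to 71075964. Counts cover whole gene spans, introns included, for 99.9% of genes in the table.

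The genes with the most similar profiles were found by the root mean square difference of log2 CPM, centred on each gene's mean, over the 9 libraries and among 13924 genes of at least 1 CPM. The measure mostly reflects the 3 group means, and it describes likeness only. For Aqp5 the nearest were the protease gene Tmprss11b (0.25), the interferon-inducible gene Ifi202b (0.29), the protease inhibitor gene Fetub (0.31), the homeobox gene Pitx1 (0.40) and the ribonuclease gene Rnase2b (0.41), against a median of 1.19 over all genes compared. Tmprss11b stood at 2.75 ± 0.241 CPM untreated, 3.16 ± 0.243 CPM under the empty device and 0.625 ± 0.110 CPM under the loaded one (mean ± SD, n = 3). Fetub stood at 8.02 ± 0.624, 17.1 ± 0.960 and 2.40 ± 0.226 CPM in the same order.

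The other members had smaller differences from their nearest genes, but their profiles spanned less, so these values do not rank closeness between members. The medians over all genes compared were 0.15 for Aqp1, 0.30 for Aqp3, 0.41 for Aqp4, 0.30 for Aqp7 and 0.28 for Aqp9. Nearest to Aqp4 were Klhl31, Dusp13, Actn2, Alpk3 and Nav3 (0.045 to 0.060). Actn2, which encodes an actinin of the muscle Z disc, stood at 127 ± 4.36 CPM untreated, 191 ± 19.3 CPM under the empty device and 99.7 ± 2.35 CPM under the loaded one. Nearest to Aqp3 were Ly6g6c, Crabp2, Rdh13, Elovl4 and Mal2 (0.031 to 0.048). Elovl4, which encodes an enzyme that lengthens the very long fatty acids of the skin barrier, stood at 739 ± 17.7, 761 ± 7.28 and 526 ± 14.9 CPM. Nearest to Aqp9 were Ank, Kctd11, Psapl1, Cltb and Mall (0.022 to 0.028), with Psapl1 at 424, 550 and 364 CPM on average. Nearest to Aqp7 were Daam2, Mks1, Eef1akmt3, Acrbp and Vps37d (0.12 to 0.14), and to Aqp1 Tcf4, Gstp1, Afg3l2, Adam9 and Slc25a32 (0.021 to 0.029). None of these 30 genes belongs to any of the 18 lists. The lists are short, so this does not show that the genes belong to other tissues.

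**Figure D4:**
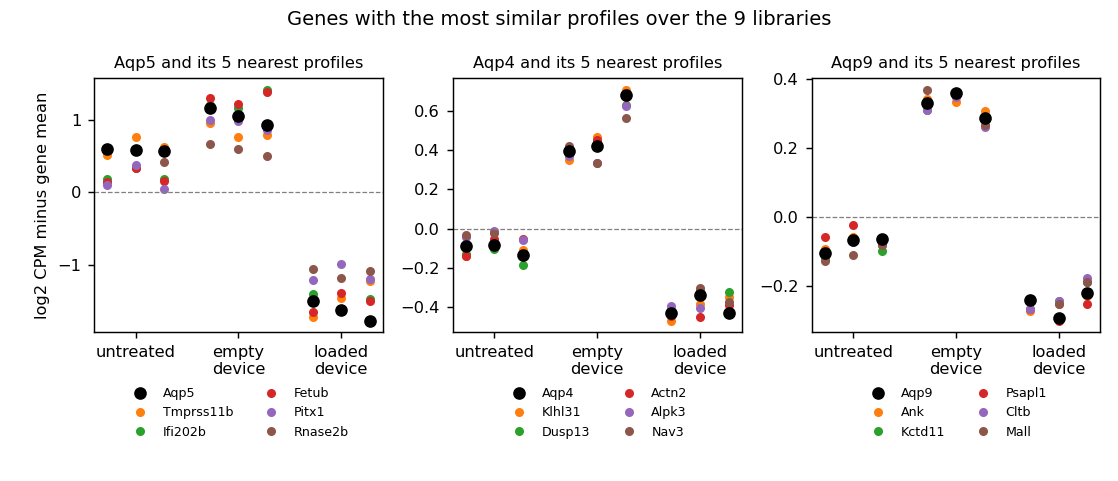
Log2 CPM minus the gene's mean (vertical axis) in the 9 libraries for Aqp5, Aqp4 and Aqp9 (black) and the 5 genes nearest to each (coloured). The loaded-device libraries are lowest for each gene shown, and the empty-device libraries highest except for Tmprss11b and Rnase2b, where they overlap the untreated ones; the vertical range differs between panels, with 2.94 for Aqp5 and 1.11 for Aqp4.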

How the data were processed

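Per the labels' protocols, polyadenylated RNA from skin (Qiagen miRNeasy) was sequenced from IDT xGen Broad-Range libraries. The values are raw counts per gene in a deposited table with 1 column per library, which the authors made by aligning with HISAT2 to mm39 and counting with featureCounts, as the submitters' processing notes list. The sources used here give no versions, annotation or strand setting.

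Of the 42688 genes with a count, filterByExpr with a minimum count of 10 and a minimum total of 15 kept 26081. They held 99.96% of counts. TMM-scaled counts of all 9 libraries were fitted in edgeR 4.0.16 (R 4.3.3) with 1 coefficient per group and tested with the robust quasi-likelihood test. p-values were adjusted by Benjamini-Hochberg over all tested genes and called under 0.05. Standard errors come from the F statistic. The common biological coefficient of variation was 0.0390.

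The members and lists were chosen with earlier results of these data known. The text names all 6 members, up to 4 genes per list with the smallest p over the 3 groups, the 5 nearest profiles (log2 CPM with a prior count of 2), and overlapping and adjacent genes. List genes named outside that rule are those too low to be tested and the neutrophil genes that passed in no comparison. Outside it as well are Myh4, Car3 and Slc2a4, chosen after their values were seen. Alternatives were other scalings, filters and tests, 2 groups at a time, a replicate block and leaving out each library.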

Additional observations from a re-analysis of the deposited data

How the results depend on the processing

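Aqp3 kept its calls and directions in all 17 alternatives where it was called, as did Aqp4 and Aqp9 between the devices and with the empty device. With library size alone, the calls of Aqp4 (-0.16) and Aqp9 (-0.040) with the loaded device against untreated skin were lost, Aqp5 was at -2.10, and 8487 genes were higher and 3973 lower in place of 4950 and 6074. Aqp1 with the loaded device against untreated skin passed with upper-quartile factors (0.085), library size alone (0.20) and only the 2 groups compared (0.077). Between the devices Aqp1 did not pass with DESeq2 size factors (0.084), upper-quartile factors (0.050), no filter (0.095), a stricter filter of 1 CPM in 3 libraries (0.062) or the DESeq2 1.42.0 Wald test (0.084). The difference between Aqp5 and the secretory gland median between the devices (-2.53) was -2.70 with no filter and -2.84 with the stricter filter. That between Aqp9 and the neutrophil median was 0.73, 0.70 and 0.17 with the stricter filter, in place of 0.53, 0.84 and -0.25, so the last turned its sign; the stricter filter leaves fewer list genes. The cause of the other changes was not tested.

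Leaving out each library gave log2 fold changes of 0.36 to 0.59 for Aqp7 with the loaded device and 0.24 to 0.49 with the empty device against untreated skin, and 0.067 to 0.12 for Aqp1 between the devices. The difference from the tissue median ran from -0.29 to -0.18 for Aqp1 and 0.66 to 0.86 for Aqp5 with the empty device. Between the devices it ran from -2.76 to -2.45 for Aqp5 and -0.41 to -0.19 for Aqp9. Same-numbered libraries did not deviate together (correlations of -0.019 to 0.015 over 9 pairs), and a fit with a replicate block called 10960, 12490 and 10753 genes against 11024, 12597 and 10805, with no call of a member lost.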
